A study of Mus musculus with 18 samples.

Results

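The hippocampus of N171-HD82Q mice was compared with that of wild-type littermates at 10 weeks of age, on 3 arrays per genotype out of 18 arrays in the series. These 6 arrays are all those whose titles name hippocampus and 10 weeks. N171-HD82Q mice express a piece of huntingtin, its N-terminal end with a lengthened run of glutamines, from a transgene under the control of the prion protein (PrP) promoter, and are used to study Huntington's disease. All 6 pools came from males on a mixed background of DBA and C57BL/6J, and wild type (wt in the labels) lacks the transgene. Each array was hybridised with an equal mix of total RNA from 3 to 4 animals, per the labels' protocols, so that a p-value measures the spread between pools. Expression is given as log2 values on Affymetrix Mouse Gene 1.0 ST arrays, where a difference of 1 is a 2-fold change, and every difference is transgenic minus wild type. The 3 values of a group are given in the order of the array numbers.

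Granule neurons of the dentate gyrus and pyramidal neurons of the CA fields are the excitatory neurons of the hippocampus. They pass signals in a chain from the dentate gyrus to CA3 and CA1, and synaptic activity in them induces immediate early genes within minutes through calcium, cyclic AMP and MAP kinase signalling. The cyclic AMP response element (CRE), bound by CREB, is a shared feature of many of these promoters. Mutant huntingtin is best known for its effect on the striatum, while memory deficits in mouse models have directed attention to the hippocampus. In bulk tissue, fewer cells of a type and less RNA per cell cannot be told apart.

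The promoters that bear on these results are shown first: that of Prnp, the prion protein gene whose promoter drives the transgene, and those of Npas4, Nr4a1 and Chgb, 3 genes of neuronal activity or secretion that were lower in the transgenic arrays. Each stretch holds the 250 bases before the start of the gene in RefSeq on GRCm38.p6, written 5′ to 3′ along the gene, with the CRE half-site TGACG or its reverse complement CGTCA in capitals.
Prnp (chr2:131909678-131909927, plus strand): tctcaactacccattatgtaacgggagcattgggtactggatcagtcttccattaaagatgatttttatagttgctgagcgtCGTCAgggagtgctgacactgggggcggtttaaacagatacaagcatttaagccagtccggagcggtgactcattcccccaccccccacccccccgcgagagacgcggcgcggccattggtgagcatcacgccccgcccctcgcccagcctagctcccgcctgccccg
Npas4 (chr19:4989972-4990221, minus strand): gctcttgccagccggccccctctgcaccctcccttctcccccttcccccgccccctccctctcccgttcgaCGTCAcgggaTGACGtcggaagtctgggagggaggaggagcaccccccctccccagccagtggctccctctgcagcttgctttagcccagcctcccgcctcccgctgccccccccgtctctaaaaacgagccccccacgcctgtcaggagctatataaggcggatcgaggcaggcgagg
Nr4a1 (chr15:101266596-101266845, plus strand): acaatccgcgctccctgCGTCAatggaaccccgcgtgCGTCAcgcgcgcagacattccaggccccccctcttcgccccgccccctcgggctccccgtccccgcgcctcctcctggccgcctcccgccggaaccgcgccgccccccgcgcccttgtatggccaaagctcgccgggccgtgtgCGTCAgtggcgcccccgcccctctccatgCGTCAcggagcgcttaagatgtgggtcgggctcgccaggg
Chgb (chr2:132781392-132781641, plus strand): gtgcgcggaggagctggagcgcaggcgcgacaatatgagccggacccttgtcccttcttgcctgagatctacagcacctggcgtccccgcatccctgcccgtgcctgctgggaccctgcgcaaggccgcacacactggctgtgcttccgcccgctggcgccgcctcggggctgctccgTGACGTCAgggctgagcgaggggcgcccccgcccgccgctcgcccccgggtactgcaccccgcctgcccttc
The Prnp stretch has 1 half-site, that of Npas4 has 2 and that of Nr4a1 has 4. Only the Chgb stretch of these 4 holds the full palindrome TGACGTCA, in which both half-sites overlap. On either strand, the half-site was present in 24.1% of the 15614 measured genes with a promoter in the table, in 71.1% of the 38 such genes of the activity lists described below, in 17.5% of the 120 such genes called lower and in 33.3% of the 18 called higher. The full palindrome was present in 2.33%, 15.8%, 1.67% and 5.56% of the same sets, and in 0 of the 5 members of the activity lists that were called lower and have an entry. A match describes letters in this window and is not a measured binding site.

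Of 19938 genes, 176 differed between the genotypes at an adjusted p below 0.05 in limma (0.883%), 22 of them higher in the transgenic arrays (0.11%) and 154 lower (0.772%). Among these, 6 rises (0.0301% of all genes) and 51 falls (0.256%) reached 1.5-fold, and in all 176 genes the 3 transgenic values did not overlap the 3 wild-type values. Over all genes, non-overlapping values were about as frequent upward (1544 genes, 7.74%) as downward (1446 genes, 7.25%), and the median difference was 0.0058. Negative differences made up 47.2% of all genes. The falls were mostly in well expressed genes: 124 of the 154 had a wild-type mean above the upper quartile of every array. These quartiles are over all probe sets, and the share of all genes above them was not counted. Of the 19938 genes, 11834 lay above the array median in at least 3 arrays. No fall started below the lowest array median (6.21), where 5 of the 22 rises did.

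The number of calls depended on single arrays. Without transgenic array 3 only Penk (−1.24, adjusted p = 0.0256) and Tafa1 (−1.11, adjusted p = 0.0256) were called, both lower. Without transgenic array 1 or 2, or wild-type array 1 or 2, between 21 and 55 of the 176 calls were kept, and without wild-type array 3, 156 were. In each of these 6 fits all 176 genes had an unadjusted p below 0.05. Their differences were between 0.796 and 1.16 times those of all 6 arrays. Their direction could not turn in these fits, because the groups of all 176 genes did not overlap. A fit that shares its spread with the other arrays of the series kept 127 of the 176 calls. With each array's median as a covariate, an alternative chosen after seeing the data, 355 genes were higher and 607 lower, all 176 among them in the same direction. Over all probe sets the arrays correlated on average at 0.991 to 0.995 with their own group and at 0.992 to 0.994 with the other group, a description across genes. Each wild-type array correlated slightly more with the transgenic arrays than with its own group. The widest gap was that of wild-type array 3 (0.99229 against 0.99115). Each transgenic array correlated slightly more with its own group.

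**Figure D1:**
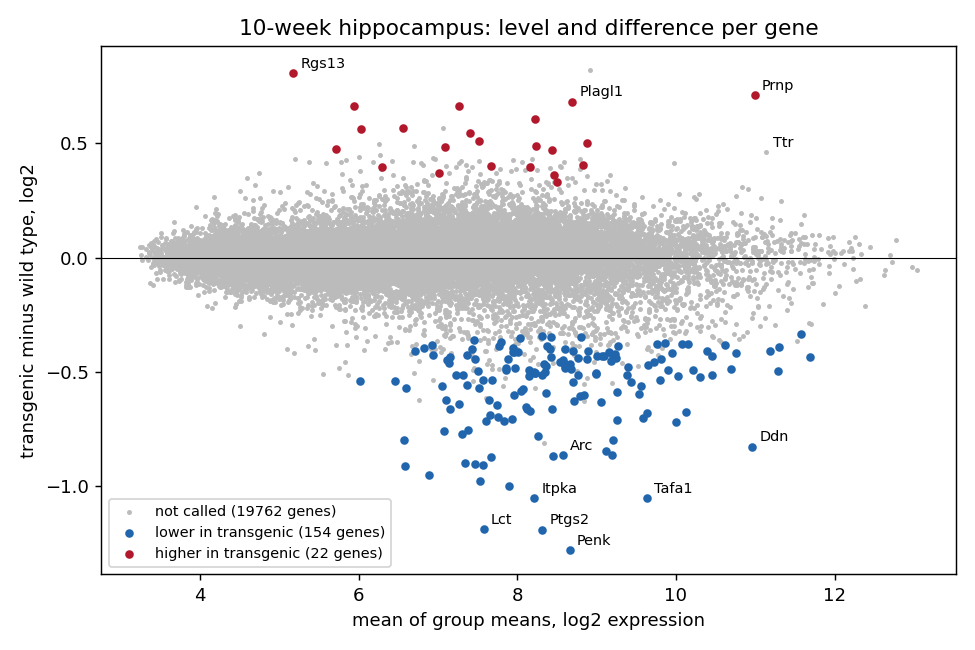
Each point is a gene, placed by the mean of its 2 group means (log2 expression, horizontal) and by transgenic minus wild type (log2, vertical). The 154 genes called lower (blue) reach further from 0 than the 22 called higher (red), and grey points are genes that were not called, among them Ttr.

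The genes tied to the transgene by name were checked first. Prnp lay at 10.56, 10.65 and 10.70 in wild type and at 11.39, 11.26 and 11.39 in the transgenic arrays, a rise of 0.71 log2 units (SE 0.0686; 1.64-fold; adjusted p = 0.00537), with a clear gap between the groups. Whether this probe set also reads RNA of the transgene was not tested. Htt, the mouse huntingtin gene, lay at 8.76, 8.89 and 8.89 in wild type and at 8.87, 8.83 and 8.87 in the transgenic arrays, a difference of 0.0081 (adjusted p = 0.9998), and the groups overlapped. Whether the mouse Htt probe set detects the transgene was not tested.

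Penk, the precursor gene of the enkephalin opioid peptides, showed the deepest fall. It lay at 9.36, 9.20 and 9.34 in wild type and at 8.07, 8.04 and 7.94 in the transgenic arrays, a difference of −1.28 log2 units (SE 0.0705; 2.43-fold; adjusted p = 0.00139). Ptgs2, the inducible cyclooxygenase that starts prostaglandin synthesis and is itself induced by synaptic activity, lay at 8.89, 8.63 and 9.20 in wild type and at 7.80, 7.53 and 7.81 in the transgenic arrays, a difference of −1.19 log2 units (SE 0.143; 2.29-fold; adjusted p = 0.0116). Its wild-type arrays were more spread than those of Penk, yet the lowest of them was above every transgenic array. Lct, which encodes lactase and marks dentate granule neurons in the mouse brain, lay at 8.09, 8.16 and 8.26 in wild type and at 6.81, 7.17 and 6.97 in the transgenic arrays. Tafa1, a gene for a small secreted protein, lay at 10.13, 10.10 and 10.25 in wild type and at 9.07, 9.03 and 9.21 in the transgenic arrays. Itpka, the neuronal kinase that phosphorylates inositol trisphosphate and bundles actin in spines, lay at 8.63, 8.68 and 8.90 in wild type and at 7.76, 7.63 and 7.66 in the transgenic arrays. The transgenic arrays were below every wild-type array by a wide margin in each. The differences of these 3 genes were −1.19, −1.05 and −1.05 log2 units (SE 0.0964, 0.0745 and 0.0846), each with an adjusted p of 0.00425 in limma.

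Of the next falls, Lrrc10b, Strip2, Plk5, Alox12b, Rasl10a, Drd5 and Dsp fell, with differences from −1.0 to −0.90 log2 units. Plk5 encodes a polo-like kinase of neurons, Alox12b a lipoxygenase, Rasl10a a small GTPase, Drd5 a dopamine receptor coupled to cyclic AMP, and Dsp the desmosomal protein desmoplakin. Strip2 lay at 7.79, 7.85 and 8.41 in wild type and at 7.22, 6.97 and 6.93 in the transgenic arrays, and Drd5 at 7.82, 7.70 and 8.25 in wild type and at 7.05, 6.89 and 7.11 in the transgenic arrays; in both, wild-type array 3 was well above the other 2 wild-type arrays. Trpc6, Wfs1, Arc, Stxbp6, Ddn, Neurod6, Spink8 and Lurap1l completed the 20 largest falls of genes with established names, with differences from −0.87 to −0.78. A predicted gene whose fall is also in this range was counted and left out of these 20. Of the 20 calls, 15, 15 and 2 were kept without transgenic array 1, 2 or 3, and 13, 13 and 20 without wild-type array 1, 2 or 3.

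**Figure D2:**
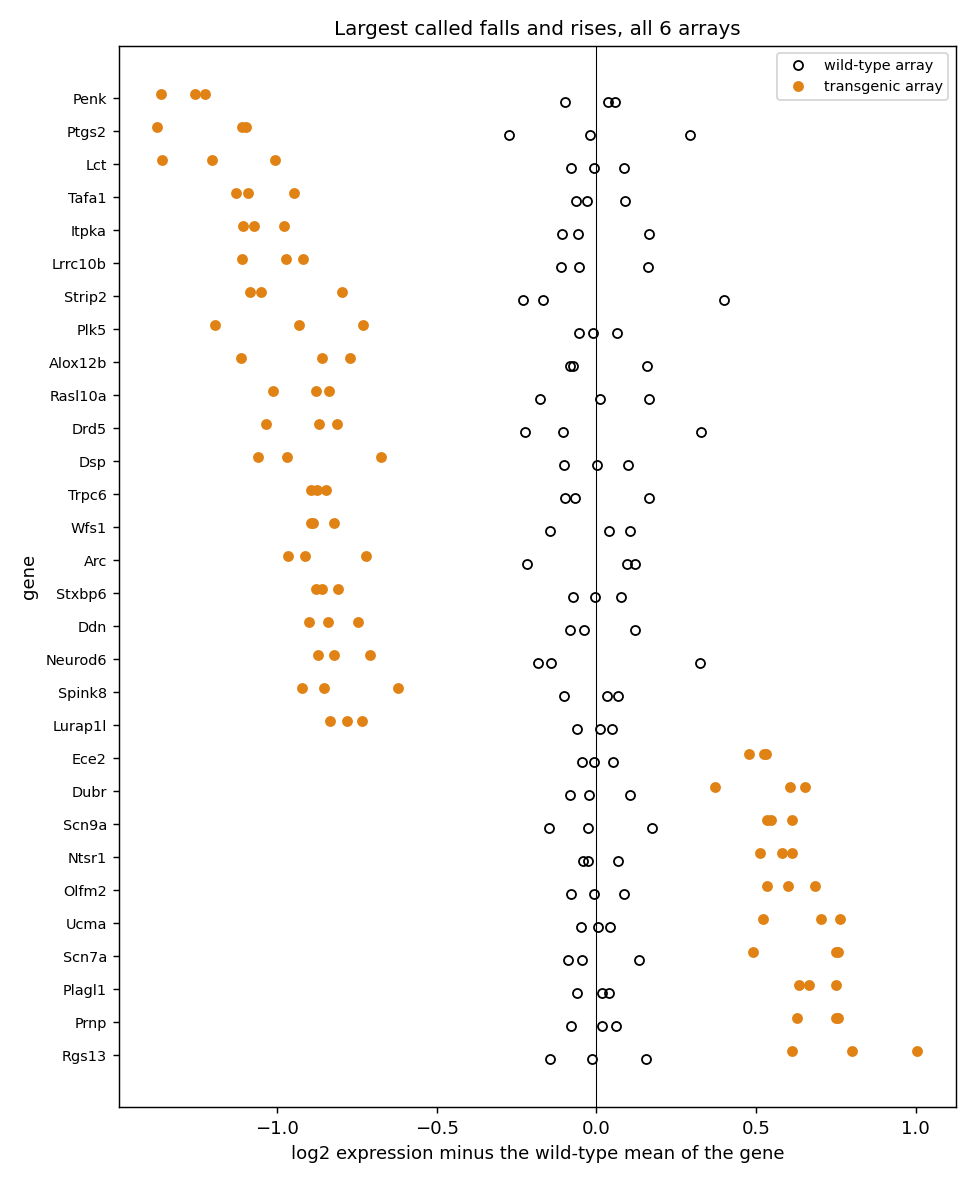
For the 20 largest called falls and the 10 largest called rises, predicted genes left out, each point is the value of 1 array minus the wild-type mean of that gene (log2). Open circles are the 3 wild-type arrays, filled circles the 3 transgenic arrays, and in no gene do the groups overlap; Strip2, Drd5 and Neurod6 have 1 wild-type array, array 3, well above the others.

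Fewer genes rose than fell. Rgs13, a regulator of G-protein signalling, lay at 4.76, 4.63 and 4.93 in wild type and at 5.57, 5.39 and 5.78 in the transgenic arrays, a rise of 0.81 log2 units (SE 0.114; 1.75-fold; adjusted p = 0.0213). Its wild-type mean of 4.77 lay below the lower quartile of every array (4.863 to 5.004). Plagl1, an imprinted zinc finger transcription factor gene, lay at 8.37, 8.29 and 8.40 in wild type and at 9.10, 9.02 and 8.99 in the transgenic arrays, a rise of 0.68 (SE 0.0633, adjusted p = 0.00472). The neighbouring sodium channel genes Scn7a and Scn9a rose together. Scn7a lay at 5.74, 5.56 and 5.52 in wild type and at 6.35, 6.36 and 6.10 in the transgenic arrays, and Scn9a at 5.72, 5.92 and 5.60 in wild type and at 6.36, 6.30 and 6.28 in the transgenic arrays, rises of 0.67 and 0.56 (adjusted p = 0.0219 and 0.0293). Ucma (0.66), a gene known from cartilage matrix, Olfm2 (0.61), an olfactomedin family gene, Ntsr1 (0.57), a neurotensin receptor, the noncoding RNA Dubr (0.54) and Ece2 (0.51), an endothelin-converting enzyme, made up the 10 largest with Prnp. Of the 22 higher calls, 3, 8 and 0 were kept without transgenic array 1, 2 or 3, and 4, 1 and 19 without wild-type array 1, 2 or 3; without transgenic array 3 their adjusted p ran from 0.0602 to 0.27. With the spread shared by all 18 arrays Plagl1 and Ucma were not called (adjusted p = 0.228 and 0.0575).

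Markers of dentate granule neurons had the most calls of the cell type lists. Of 19 measured members 11 fell, 8 did not pass and 0 rose. Over all genes 0.772% were called lower. All lists were chosen with earlier results of these data known, so a list's share beside that of all genes is a description only. All 19 differences were negative, beside 47.2% of all genes. The groups did not overlap in 18, beside 7.25% of all genes that were lower without overlap. The list median was −0.47, where that of all genes was 0.0058. The mean level of the list lay at 8.20 to 8.32 on the wild-type arrays and at 7.67 to 7.73 on the transgenic arrays. Prox1, the transcription factor that defines granule neurons, lay at 8.61, 8.70 and 8.63 in wild type and at 8.30, 8.42 and 8.36 in the transgenic arrays, above the upper quartile of every array, and did not pass the test (adjusted p = 0.0945). It is named here to check the tissue label, after its values were seen. Stxbp6, which encodes a SNARE-binding protein, lay at 9.47, 9.62 and 9.54 in wild type and at 8.74, 8.67 and 8.69 in the transgenic arrays, a difference of −0.85 log2 units (SE 0.0641; 1.8-fold; adjusted p = 0.00425). Trpc6, a cation channel opened by diacylglycerol, lay at 8.01, 8.04 and 8.27 in wild type and at 7.24, 7.26 and 7.21 in the transgenic arrays. Rfx3, a transcription factor of cilia, and Npnt, the matrix protein nephronectin, fell, with differences of −0.63 and −0.62 (adjusted p = 0.00679 and 0.00687). Among 17 markers of newborn granule neurons 1 fell, Calb2 (−0.46), and 16 did not pass; 11 differences were positive, and the list median was 0.053.

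Of 12 measured markers of CA1 pyramidal neurons 3 fell (25%, beside 0.772% of all genes) and 9 did not pass. All 12 differences were negative, beside 47.2% of all genes, and the list median was −0.39. The groups did not overlap in any of the 12, beside 7.25% of all genes that were lower without overlap. Wfs1, an endoplasmic reticulum membrane protein concentrated in CA1, lay at 9.67, 9.73 and 9.48 in wild type and at 8.74, 8.73 and 8.81 in the transgenic arrays, a difference of −0.87 log2 units (SE 0.0774; 1.82-fold; adjusted p = 0.00472). Spink8, a protease inhibitor gene, lay at 7.00, 6.87 and 7.04 in wild type and at 6.35, 6.05 and 6.12 in the transgenic arrays, and Gpr161, an orphan receptor of primary cilia, at 8.45, 8.20 and 8.37 in wild type and at 7.80, 7.81 and 7.66 in the transgenic arrays. Their differences were −0.80 and −0.58 (adjusted p = 0.0112 and 0.0217).

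CA2 and CA3 markers had calls as well, beside 0.772% of all genes called lower and 0.11% called higher. Of 9 CA2 markers 2 fell and 7 did not pass (list median −0.087). That median was −0.27 with dim genes left out and 0.021 without transgenic array 1. Rgs14, which limits plasticity in CA2, lay at 7.87, 7.93 and 8.03 in wild type and at 7.36, 7.40 and 7.46 in the transgenic arrays, and Amigo2, an adhesion protein, at 7.51, 7.53 and 7.42 in wild type and at 7.02, 7.00 and 6.90 in the transgenic arrays. Of 12 CA3 markers 2 fell, 9 did not pass and 1 rose (list median −0.19). The 2 that fell were Prkcd, a protein kinase C isoform (−0.64, adjusted p = 0.0116), and Bok, an apoptosis regulator (−0.60, adjusted p = 0.0252), while Plagl1 was the 1 that rose. Among markers common to the CA fields 2 of 11 fell, and the median was −0.17: Neurod6, a transcription factor of pyramidal neurons, lay at 9.42, 9.47 and 9.93 in wild type and at 8.90, 8.74 and 8.79 in the transgenic arrays, and Nptx1, a pentraxin that clusters AMPA receptors, at 10.67, 10.67 and 10.80 in wild type and at 10.25, 10.19 and 10.16 in the transgenic arrays. Of 11 mossy cell markers only Calb2 fell, with a median of −0.035. Of the 22 calls in these subfield lists and the granule and CA1 lists, 9, 10 and 0 were kept without transgenic array 1, 2 or 3, and 10, 5 and 22 without wild-type array 1, 2 or 3 (adjusted p = 0.0602 to 0.248 without transgenic array 3). With the spread shared by all 18 arrays Gpr161, Rgs14, Amigo2, Plagl1 and Calb2 were not called (adjusted p = 0.0508, 0.217, 0.174, 0.228 and 0.149).

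**Figure D3:**
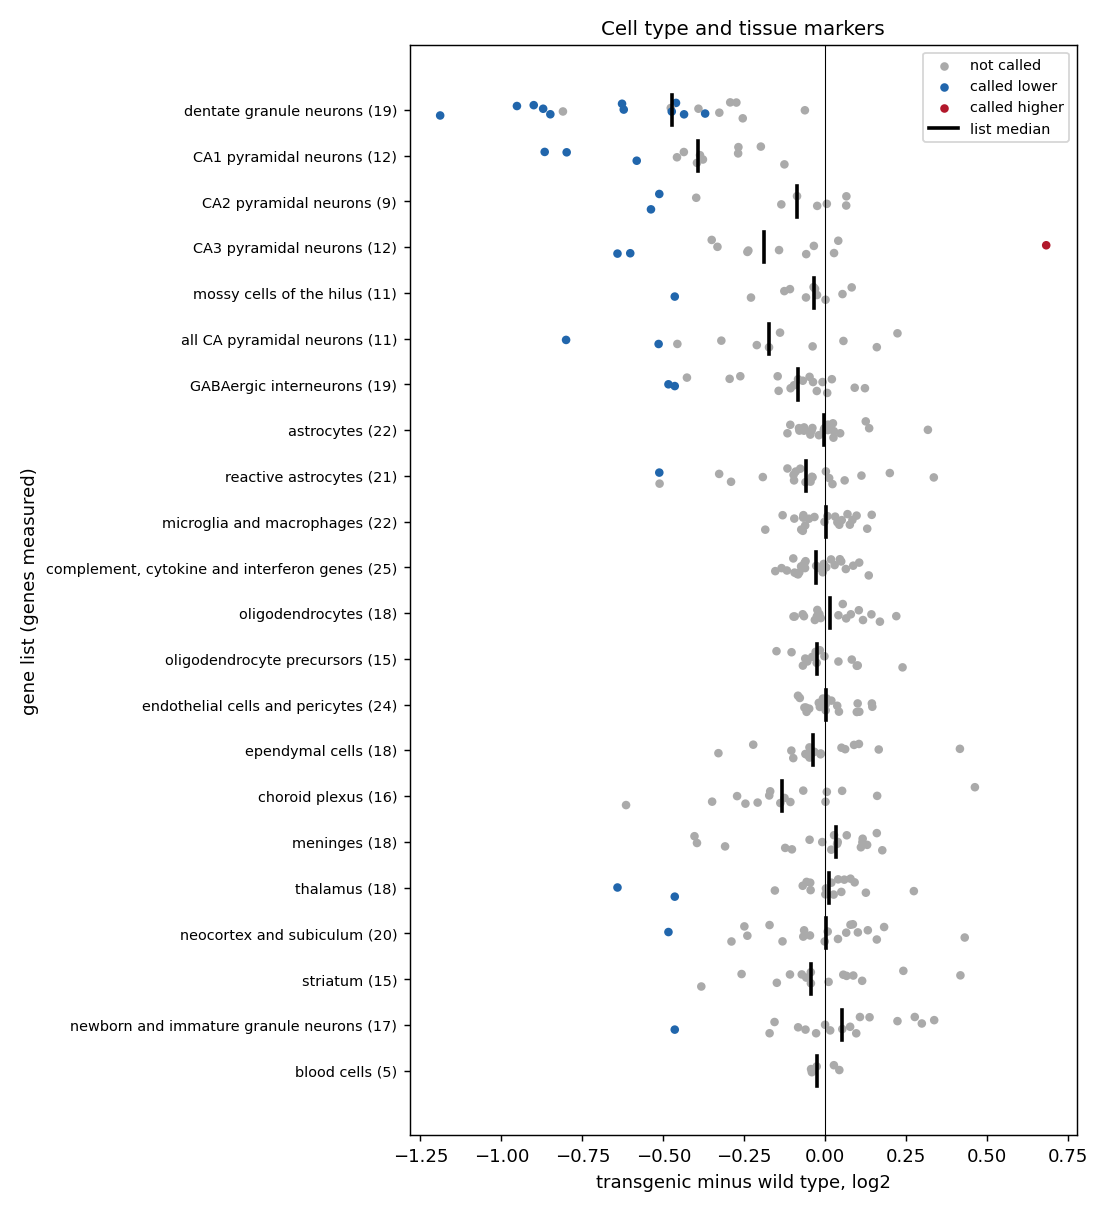
Each point is the difference of 1 gene (transgenic minus wild type, log2), sorted by marker list, with the number of measured genes in brackets and a black bar at the list median; blue points were called lower and red points higher. All granule and CA1 markers lie left of 0, while the lists of astrocytes, microglia, oligodendrocytes and vessels have medians between −0.0029 and 0.014.

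Non-neuronal cells showed few calls, and inhibitory neurons had 2. Of 19 GABAergic interneuron markers 2 fell (10.5%, beside 0.772% of all genes) and 17 did not pass (list median −0.084). In 9 of the 19 the transgenic values lay below all wild-type values, beside 7.25% of all genes. The 2 called were Lamp5 (−0.48, adjusted p = 0.0312) and Calb2 (−0.46, adjusted p = 0.0409), the calcium buffer calretinin, which stands in several marker lists. Both calls were kept without wild-type array 3 and lost when any other array was left out, and both were lost with the spread shared by all 18 arrays (adjusted p = 0.47 and 0.149). The mean level of the list lay at 8.47 to 8.51 in wild type and at 8.35 to 8.39 in the transgenic arrays, which did not overlap. The medians were −0.0029 for 22 astrocyte markers, 0.0028 for 22 markers of microglia and macrophages, 0.014 for 18 of oligodendrocytes, −0.026 for 15 of their precursors and 0.0017 for 24 of endothelial cells and pericytes, with 0 members called in each by limma; at an unadjusted p below 0.05 stood 1, 0, 2, 0 and 0 members. Agt, the angiotensinogen gene of astrocytes, had the smallest p among the astrocyte markers. It lay at 8.49, 8.45 and 8.51 in wild type and at 8.80, 8.78 and 8.83 in the transgenic arrays, a difference of 0.32 (adjusted p = 0.0514). Of 21 reactive astrocyte genes 1 was called, Amigo2, which CA2 neurons also express, and of 25 complement, cytokine and interferon genes 0 were (0 at an unadjusted p below 0.05). The mean level of the reactive astrocyte list lay at 6.9715 to 7.0974 in wild type and at 6.9364 to 6.9697 in the transgenic arrays. These ranges did not overlap but nearly touched. The mean level of the microglial list lay at 7.32 to 7.34 in wild type and at 7.32 to 7.33 in the transgenic arrays, and that of the astrocyte list at 9.20 to 9.26 and 9.18 to 9.26.

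The dissection was examined through markers of neighbouring tissue. Of 16 choroid plexus markers 0 were called (1 at an unadjusted p below 0.05) and 0 had groups that did not overlap. Their mean level lay at 6.15, 6.57 and 7.30 on the wild-type arrays and at 6.76, 6.52 and 6.41 on the transgenic arrays, so the transgenic arrays lay within the range of the wild-type arrays. Ttr, the transthyretin gene of the choroid plexus, lay at 8.77, 11.49 and 12.45 in wild type and at 11.93, 11.20 and 10.97 in the transgenic arrays, so that wild-type arrays 1 and 3 were the lowest and the highest of the 6. Kl, the klotho gene, followed the same order in wild type; it lay at 7.44, 7.73 and 8.57 in wild type and at 7.58, 7.20 and 7.11 in the transgenic arrays. Wild-type array 3, the highest in both, also had the highest values of Strip2, Drd5 and Neurod6. Without it the differences were −0.78 for Strip2, −0.74 for Drd5 and −0.64 for Neurod6, each still called. The calls of Strip2, Drd5 and Neurod6 were lost when any other array was left out. Markers of thalamus (2 of 18 lower, Prkcd and Calb2), neocortex and subiculum (1 of 20 lower, Lamp5), striatum (0 of 15), meninges (0 of 18), ependyma (0 of 18) and blood (0 of 5) had medians between −0.044 and 0.033. The share of all genes called lower was 0.772%. S100a9 (−0.04) and Slc4a1 (0.04) had the smallest p of the blood list.

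**Figure D4:**
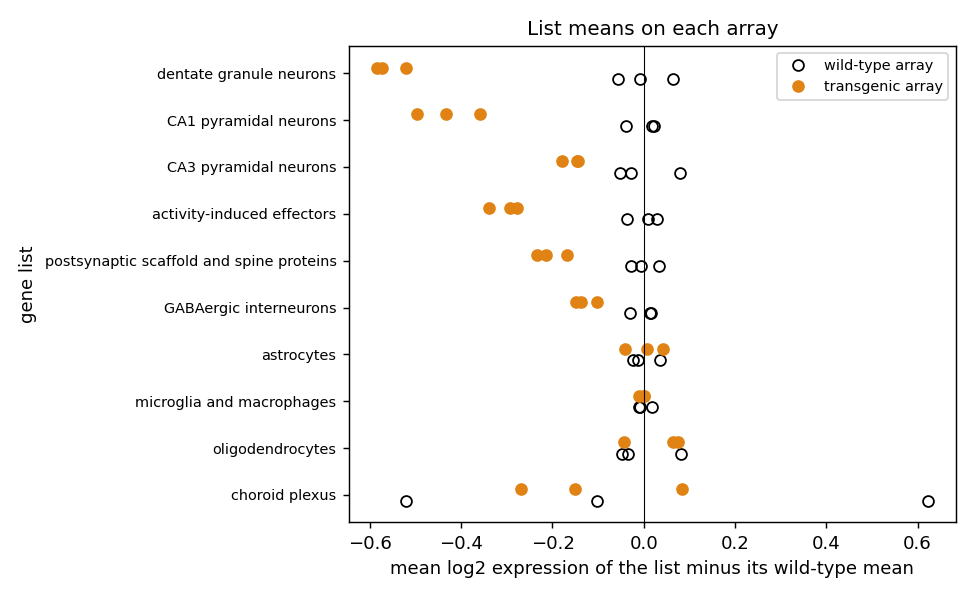
Each point is the mean log2 expression of a gene list on 1 array minus the mean of its wild-type arrays. The transgenic arrays (filled) lie below the wild-type arrays (open) for the granule, CA1, CA3, interneuron, activity-induced and postsynaptic lists and overlap them for the astrocyte, microglial and oligodendrocyte lists. Of the lists drawn, that of the choroid plexus is spread most widely among the wild-type arrays.

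Genes induced by neuronal activity were called lower among both transcription factors and effectors. Among 24 immediate early transcription factors 4 fell (16.7%, beside 0.772% of all genes), 20 did not pass and 0 rose (list median −0.18). Nr4a1, a nuclear receptor whose promoter holds 4 CRE half-sites, lay at 9.03, 8.92 and 8.99 in wild type and at 8.51, 8.37 and 8.43 in the transgenic arrays. Bhlhe40, a repressor shared with the circadian clock, lay at 7.89, 7.97 and 8.12 in wild type and at 7.49, 7.18 and 7.24 in the transgenic arrays. Npas4, the calcium-dependent factor that shapes inhibitory synapses and whose promoter holds 2 half-sites, lay at 6.89, 6.74 and 6.55 in wild type and at 6.26, 6.19 and 6.10 in the transgenic arrays. Together with Jun, a subunit of AP-1, these genes fell, with differences of −0.54, −0.69, −0.54 and −0.41 (adjusted p = 0.0116, 0.022, 0.0427 and 0.0453). Fos, chosen after its values were seen as the most used member of the family, differed by −0.13 (adjusted p = 0.915) and was not called.

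Of 28 activity-induced effectors 5 fell (17.9%, beside 0.772% of all genes), 23 did not pass and 0 rose. The list had 26 negative differences, beside 47.2% of all genes, and its median was −0.22. Besides Penk and Ptgs2 the called members were Arc, Nrn1 and Homer1. Arc, which removes AMPA receptors from synapses, lay at 9.13, 8.79 and 9.11 in wild type and at 8.29, 8.10 and 8.05 in the transgenic arrays, a difference of −0.87 log2 units (SE 0.107; 1.82-fold; adjusted p = 0.0123). Nrn1, which encodes the neurite-promoting protein neuritin, lay at 10.52, 10.51 and 10.67 in wild type and at 9.96, 10.11 and 10.06 in the transgenic arrays, and Homer1, a postsynaptic scaffold gene, at 8.78, 8.78 and 8.85 in wild type and at 8.44, 8.39 and 8.38 in the transgenic arrays. Their differences were −0.52 and −0.40 (adjusted p = 0.0211 and 0.0235). Of 11 genes of neurotrophins, their receptors and related proteins 0 passed in limma (3 at an unadjusted p below 0.05). The same held for 21 genes of MAP kinase phosphatases and kinases (7 at an unadjusted p below 0.05). These lists share members with the effector list, such as Bdnf and Dusp1, and do not separate upstream signals from targets of activity. The lowest p were those of Sort1 (−0.44, adjusted p = 0.06), a sorting receptor of neurotrophins, and Dusp5 (−0.45, adjusted p = 0.061), a nuclear phosphatase of ERK. Of the 9 calls in the activity lists, 4, 1 and 1 were kept without transgenic array 1, 2 or 3, and 1, 3 and 9 without wild-type array 1, 2 or 3. With the spread shared by all 18 arrays Nr4a1 had an adjusted p of 0.0716.

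Receptors for transmitters and peptides had calls in each list, beside 0.772% of all genes called lower and 0.11% called higher. Of 28 receptors for monoamines, acetylcholine and purines 5 fell and 23 did not pass (list median −0.076). These were the dopamine receptor gene Drd5, the serotonin receptor genes Htr2a, Htr1b and Htr4 and the muscarinic receptor gene Chrm3. Htr2a lay at 8.38, 8.27 and 8.42 in wild type and at 7.80, 7.72 and 7.84 in the transgenic arrays, Htr1b at 7.85, 7.77 and 7.90 in wild type and at 7.24, 7.40 and 7.26 in the transgenic arrays and Htr4 at 8.14, 8.06 and 8.11 in wild type and at 7.54, 7.73 and 7.56 in the transgenic arrays, differences of −0.58, −0.54 and −0.49 (adjusted p = 0.0112, 0.0148 and 0.022). Chrm3 fell by 0.44. Among 25 neuropeptide receptors 2 fell and 1 rose: Npy2r, a presynaptic neuropeptide Y receptor, lay at 7.49, 7.63 and 7.96 in wild type and at 6.88, 6.93 and 6.95 in the transgenic arrays, Sstr4, a somatostatin receptor, at 10.13, 10.16 and 10.15 in wild type and at 9.63, 9.70 and 9.63 in the transgenic arrays, and Ntsr1, which rose, at 6.34, 6.23 and 6.25 in wild type and at 6.78, 6.85 and 6.88 in the transgenic arrays. Among 28 neuropeptide and granin genes 2 fell (list median −0.044), Penk and Chgb. Chgb, a granin of dense-core vesicles, lay at 9.89, 10.00 and 10.05 in wild type and at 9.30, 9.33 and 9.27 in the transgenic arrays (−0.68, SE 0.0654, adjusted p = 0.00537).

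Among 25 glutamate receptor genes 2 fell (8%, beside 0.772% of all genes), with a median of −0.11. Grin2a, an NMDA receptor subunit gene, lay at 10.44, 10.45 and 10.51 in wild type and at 9.92, 9.63 and 9.80 in the transgenic arrays, a difference of −0.68 log2 units (SE 0.082; 1.6-fold; adjusted p = 0.0116), and Grm2, a presynaptic metabotropic receptor gene of dentate granule neurons, fell by 0.43 (adjusted p = 0.0409). Of 12 GABA receptor genes 2 fell, both encoding extrasynaptic subunits: Gabrd, found in granule neurons, lay at 7.39, 7.32 and 7.40 in wild type and at 6.92, 6.94 and 6.94 in the transgenic arrays, and Gabra5, found in CA neurons, at 10.87, 10.88 and 11.06 in wild type and at 10.54, 10.38 and 10.42 in the transgenic arrays. Their differences were −0.44 and −0.49 (adjusted p = 0.0158 and 0.0336). Of 20 enzymes of lipid messengers 3 fell (list median −0.058): Ptgs2, Alox12b (−0.91) and Dagla (−0.43), which makes the endocannabinoid 2-arachidonoylglycerol. Of the 17 calls among receptors, peptides and lipid enzymes, 5, 8 and 1 were kept without transgenic array 1, 2 or 3, and 5, 2 and 17 without wild-type array 1, 2 or 3. Chrm3, Dagla, Grm2 and Gabra5 were not called with the shared spread (adjusted p = 0.0803, 0.0532, 0.11 and 0.227).

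Ion channels changed in both directions, beside 0.772% of all genes called lower and 0.11% called higher. Of 50 potassium channel genes 4 fell, 46 did not pass and 0 rose (list median −0.092). Kcnh3, an EAG-family channel of the forebrain, lay at 8.23, 8.31 and 8.31 in wild type and at 7.62, 7.52 and 7.59 in the transgenic arrays, and Kcnk4, a mechanosensitive leak channel, at 8.16, 8.04 and 8.12 in wild type and at 7.31, 7.57 and 7.34 in the transgenic arrays, differences of −0.71 and −0.70 (adjusted p = 0.00472 and 0.0113). Kcnip2, a subunit of A-type channels, and Kcnq5, a subunit of the M-current, fell, with differences of −0.43 and −0.38. Of 14 sodium and HCN channel genes 2 rose and 12 did not pass, Scn7a and Scn9a, from wild-type means of 5.61 and 5.75 below the array medians. Trpc6 was the 1 that fell of 23 calcium and TRP channel genes, with a median of −0.014. Of the 7 channel calls, 2, 3 and 0 were kept without transgenic array 1, 2 or 3, and 2, 2 and 7 without wild-type array 1, 2 or 3, and Kcnip2 had an adjusted p of 0.0716 with the shared spread.

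Second messenger pathways had calls in single members, beside 0.772% of all genes called lower and 0.11% called higher. In inositol phosphate and protein kinase C signalling 4 of 29 genes fell, with a median of −0.069: Itpka, Prkcd, and the diacylglycerol kinase genes Dgkz (−0.44) and Dgki (−0.41). In cyclic nucleotide signalling 3 of 36 fell, with a median of −0.044. Adcy1, the calmodulin-stimulated adenylyl cyclase of excitatory neurons, lay at 10.32, 10.39 and 10.39 in wild type and at 9.71, 9.64 and 9.60 in the transgenic arrays, a difference of −0.72 log2 units (SE 0.0613; 1.65-fold; adjusted p = 0.00472). Adcy9, another cyclase, and Ppp1r1a, an inhibitor of protein phosphatase 1 that protein kinase A switches on, fell, with differences of −0.47 and −0.48 (adjusted p = 0.0217 and 0.0168). Among 38 genes of calcium and calmodulin signalling 4 fell, 33 did not pass and 1 rose (list median −0.15). Camk2n2, an inhibitor of CaMKII, lay at 7.95, 8.03 and 7.99 in wild type and at 8.46, 8.53 and 8.44 in the transgenic arrays, a rise of 0.49 (adjusted p = 0.0121). The falls were those of Camkk2 (−0.44), a kinase that activates CaM kinases, Hpca (−0.44), the calcium sensor hippocalcin, Calb2 and Atp2b1 (−0.33), a calcium pump of the plasma membrane.

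Rasl10a, a small GTPase of the Ras family, lay at 8.03, 7.84 and 8.18 in wild type and at 7.01, 7.18 and 7.14 in the transgenic arrays. Rasd2, the striatum-enriched GTPase Rhes that binds mutant huntingtin, lay at 8.41, 8.47 and 8.59 in wild type and at 7.80, 7.91 and 7.76 in the transgenic arrays. Their differences were −0.91 and −0.67 (adjusted p = 0.00815 and 0.00988), and both had a gap between the groups. Among 17 regulators of G-protein signalling 1 fell, Rgs14, and 1 rose, Rgs13, beside 0.772% and 0.11% of all genes. Of the 14 calls in the second messenger lists described here, 2, 3 and 0 were kept without transgenic array 1, 2 or 3, and 4, 2 and 11 without wild-type array 1, 2 or 3. With the shared spread Camkk2, Hpca, Atp2b1, Adcy9 and Dgki were not called (adjusted p = 0.102, 0.0968, 0.0532, 0.0546 and 0.112), nor were Calb2 (0.149) and Rgs14 (0.217).

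Genes of both sides of the synapse had calls, all lower, beside 0.772% of all genes called lower. Of 36 scaffold and spine genes 5 fell, 31 were negative, beside 47.2% of all genes, and the median was −0.18. Ddn, which encodes the dendritic protein dendrin, lay at 11.29, 11.34 and 11.50 in wild type and at 10.63, 10.48 and 10.54 in the transgenic arrays, a difference of −0.83 log2 units (SE 0.076; 1.78-fold; adjusted p = 0.00472). Lzts3, a scaffold that binds SHANK proteins, lay at 8.79, 8.67 and 8.85 in wild type and at 8.14, 8.10 and 8.08 in the transgenic arrays; with Nptx1, Homer1 and Homer3 (−0.35) it completed the falls. Of 39 presynaptic and vesicle genes 5 fell as well, 29 were negative, beside 47.2% of all genes, and the median was −0.092. These were Stxbp6, the synaptotagmin genes Syt7 (−0.44) and Syt12 (−0.38), the calcium sensor gene Doc2b (−0.52) and that of the vesicle protein Sv2c (−0.40). Adhesion and guidance molecules had 2 falls among 67 genes, Sema5a (−0.45) and Pcdh20 (−0.43), and a median of −0.047. Of the 12 calls, 3, 3 and 0 were kept without transgenic array 1, 2 or 3, and 3, 3 and 11 without wild-type array 1, 2 or 3, and Syt12, Sema5a and Pcdh20 were not called with the shared spread (adjusted p = 0.273, 0.0772 and 0.125).

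**Figure D5:**
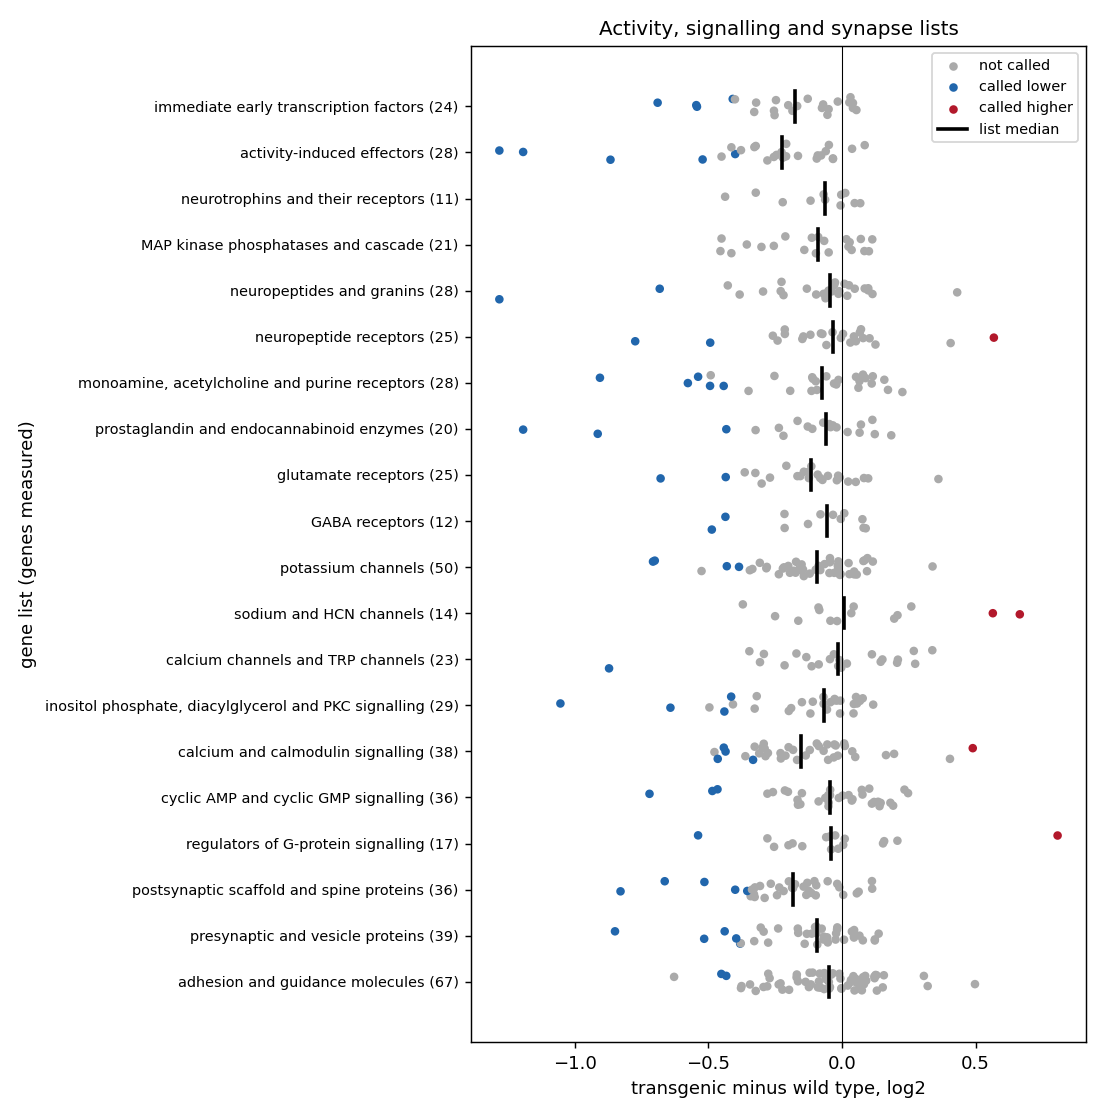
Each point is the difference of 1 gene (transgenic minus wild type, log2) in the activity, receptor, channel, messenger and synapse lists, with measured genes in brackets and a black bar at the list median. Blue points were called lower and red points higher; the deepest points are Penk and Ptgs2 in the activity-induced list, and red points stand in the sodium channel, peptide receptor, calmodulin and G-protein regulator lists.

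Growth factor, matrix and nuclear lists had between 0 and 3 calls each. Of 36 genes of Wnt, TGF-beta and BMP signalling 3 fell (8.33%, beside 0.772% of all genes called lower). Tgfb2, a TGF-beta ligand, lay at 8.48, 8.39 and 8.56 in wild type and at 7.96, 7.97 and 7.99 in the transgenic arrays. The ligand gene Wnt2 (−0.41) and the BMP antagonist gene Chrd (−0.36) were the others. Of 37 genes of FGF, EGF, IGF and VEGF signalling 1 fell, the binding protein gene Igfbp5 (−0.39), and of 39 matrix genes 1, Npnt. Among 42 neuronal transcription factors Rfx3 and Neurod6 fell, 21 members were negative and 21 positive, and the median was −0.0051. Of 36 chromatin enzymes 0 were called (6 at an unadjusted p below 0.05); Hdac3, a histone deacetylase, had the smallest p (0.22, adjusted p = 0.184). Of the 4 growth factor calls 3 were kept without wild-type array 3 and 0 when any other array was left out. With the shared spread Wnt2, Chrd and Igfbp5 were not called (adjusted p = 0.0589, 0.14 and 0.219).

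Genes known from work on Huntington's disease had 4 calls, beside 0.772% of all genes called lower and 0.11% called higher. Of 22 striatal projection neuron genes known to be low in Huntington models, 3 fell, Penk, Rasd2 and Kcnip2, and 19 did not pass; the list median was −0.073. Of 17 partners of huntingtin and transport genes Prnp rose and Rasd2 fell. Protein quality control had few calls: 0 of 32 chaperones, 0 of 31 proteasome and ubiquitin genes and 0 of 27 autophagy and lysosome genes, with medians of −0.069, 0.041 and 0.068 and 4, 5 and 1 members at an unadjusted p below 0.05. The smallest p in these lists were those of Hspb1 (−0.29, adjusted p = 0.205), a small heat shock protein, Uchl1 (0.26, 0.185), a deubiquitinase, and Grn (0.23, 0.178), the progranulin gene. Of 26 genes of the endoplasmic reticulum stress response only Wfs1 fell, with a median of −0.059.

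The metabolic lists had 0 calls in limma. Of 51 respiratory chain genes 40 were positive, beside 52.8% over all genes, with a median of 0.034 and 1 at an unadjusted p below 0.05. Sdhb, a subunit of complex II, had the smallest p (0.17, adjusted p = 0.391). Glycolysis (0 of 24, median 0.0093) and cholesterol synthesis (0 of 22, median −0.053) had 5 and 6 members at an unadjusted p below 0.05, with Pfkp, a phosphofructokinase (0.29, adjusted p = 0.104), and Abca1, a cholesterol exporter (0.30, 0.0853), as their members of smallest p. Of 21 glucocorticoid response genes 0 were called (6 at an unadjusted p below 0.05); Fkbp5, a steroid receptor chaperone, differed by −0.42 (adjusted p = 0.0813). Of 19 clock genes 2 fell (10.5%, beside 0.772% of all genes), Bhlhe40 and the period gene Per3. The latter lay at 7.57, 7.70 and 7.49 in wild type and at 7.15, 7.12 and 7.21 in the transgenic arrays. Per3 kept its call without wild-type array 3 and lost it when any other array was left out, and was not called with the shared spread (adjusted p = 0.184).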

How the data were processed

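RNA from 18 pools of mice was measured on Affymetrix Mouse Gene 1.0 ST arrays, of which 6 were used here. The deposited values are log2 expression that the authors made with RMA and the oligo package, per the submitters' processing notes, which give no versions; RMA subtracts background, equalises the distributions of the arrays and summarises probes. Arrays of 1 tissue and age shared 76 to 150 exact values with each other and at most 2 with arrays of another set, so levels were compared only within the 6 arrays. Of 35556 rows, 21789 had 1 gene symbol in the platform annotation, 1621 had several and 12146 were not listed; 21698 of the first were matched to RefSeq (GRCm38.p6). For 999 genes with more than 1 row, the row of the highest mean was kept, leaving 19938 genes.

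Genotypes were compared with limma 3.58.1 (R 4.3.3), lmFit and eBayes without trend, two-sided, and every adjusted p is from such a fit with Benjamini-Hochberg adjustment over all genes it tested. A gene is called at an adjusted p below 0.05. The script was tested on simulated data. The number of arrays limits the precision.

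Among called genes, the 10 largest rises, the 20 largest falls and, in each of 59 gene lists, up to 5 called members or else the 2 of smallest p are named, with Htt, Prnp, Penk and Ttr; predicted genes are counted only, and 1 list is not reported here. Any other gene named was picked with its values in view. The genes and lists were chosen with earlier results of these data known. Alternatives were the spread of all 18 arrays, an intensity trend, robust variances, the replicate number as a block, median centring, quantile normalisation, no dim genes, the mean of a gene's rows, all rows, a 1.5-fold minimum and each array left out.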

Additional observations from a re-analysis of the deposited data

How the results depend on the processing

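With 3 arrays a group, the number of calls moved with most settings. The 176 called genes kept their direction in each fit per gene that tested them. With an array left out this was fixed beforehand, because their groups did not overlap. The intensity trend, robust variances, the replicate block and the spread of all 18 arrays leave each difference unchanged. In these fits direction could not turn either. Leaving out each array in turn gave between 0 and 40 genes higher and between 2 and 155 lower. The 0 higher calls came without transgenic array 3, where limma gave 1170 genes at an unadjusted p below 0.05. An intensity trend gave 63 higher and 312 lower, quantile normalisation 53 and 259, median centring 11 and 85, and leaving out dim genes 61 and 269 of 11834 genes. All rows of the value table, which is 35556 tests, gave 3 and 26, and a 1.5-fold minimum 6 and 51. With each array's median as a covariate, chosen after seeing the data, 355 were higher and 607 lower. Robust variances, the mean of all rows of a gene and the spread of all 18 arrays gave counts within 1.5 times those reported. The arrays' medians ran from 6.21 to 6.35, and the cause of these shifts was not tested.

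With the replicate block, 6 genes were higher and 50 lower, and 55 of the 176 calls were kept. The deviations of same-numbered wild-type and transgenic arrays correlated at −0.445, 0.34 and 0.095. Those of arrays with different numbers ran from −0.558 to 0.511. With so few arrays these values cannot decide whether the numbers pair the pools, and the main fit did not treat them as pairs.

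Of the comparisons of named genes with an alternative other than a left-out array, 1017 stayed on their side of the threshold, 111 lost the call, 53 gained it and 0 turned direction. An intensity trend, robust variances, the replicate block and the shared spread change only the spread, so no direction could turn there. With arrays left out, 333 lost the call and 7 turned direction, all in genes that were not called. The difference ran from −0.605 to 1.23 for Ttr, −0.134 to 0.0297 for S100a9, −0.0624 to 0.108 for Slc4a1 and −0.0335 to 0.0292 for Htt. List medians moved by more than the spread between replicates in 12 comparisons with all arrays (518 did not) and in 54 with an array left out (300 did not). In the settings that change only the spread the medians could not move, and these are among the 518. The medians of 20 lists turned sign in at least 1 setting. That of the choroid plexus ran from −0.271 to 0.0835 and that of CA2 from −0.267 to 0.0215, and the others were within 0.0532 of 0 as reported.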

Other observations

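Of the called genes, 76 lower and 15 higher stood in none of the gene lists; the genes below were chosen among these after their values were seen. They are single genes, with no count behind them of how many genes of a like function were measured. Wasf1, a subunit of the WAVE complex that starts actin branching, lay at 10.33, 10.32 and 10.38 in wild type and at 9.98, 9.99 and 9.93 in the transgenic arrays, a difference of −0.38 (adjusted p = 0.0272). Wipf3, which binds WASP proteins, differed by −0.56, and Cap2, a cyclase-associated protein that binds actin monomers, by −0.42 (adjusted p = 0.0116 and 0.0428). Git1, a scaffold with GTPase-activating activity for ARF proteins, differed by −0.49, and Rin1, a Ras effector, by −0.64. In all 5 genes the groups did not overlap.

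Orai2 and Orai3, which encode subunits of store-operated calcium channels, were called lower, while Orai1 (0.0088, adjusted p = 0.9998) and the genes of the calcium sensors that open these channels, Stim1 (0.20, 0.559) and Stim2 (−0.36, 0.0537), were not called. Orai2 lay at 9.91, 9.91 and 10.05 in wild type and at 9.46, 9.53 and 9.51 in the transgenic arrays, and Orai3 at 8.23, 8.06 and 8.19 in wild type and at 7.70, 7.72 and 7.81 in the transgenic arrays, differences of −0.46 and −0.42 (adjusted p = 0.0217 and 0.0409). Jph1, a junctophilin that ties the endoplasmic reticulum to the plasma membrane, differed by −0.51. Grem1, a secreted BMP antagonist, differed by −0.57 (adjusted p = 0.0269). The olfactomedin genes Olfm1 (−0.43) and Olfml2b (−0.65) were lower, and Olfm2 (0.61) was higher; other family members were not counted. Of the higher genes outside the lists, Nfya, a subunit of the CCAAT-binding factor NF-Y, lay at 8.24, 8.22 and 8.17 in wild type and at 8.68, 8.64 and 8.72 in the transgenic arrays (0.47, adjusted p = 0.0124). Slc6a15, a neuronal transporter of neutral amino acids, lay at 8.55, 8.63 and 8.70 in wild type and at 9.11, 9.10 and 9.18 in the transgenic arrays (0.50, adjusted p = 0.0135). The transgenic values of both lay above every wild-type value.

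Of 19919 measured genes placed on GRCm38.p6, 10 pairs of direct neighbours were both called, 7 with both genes lower, 2 with both higher and 1 with opposite directions. Besides Scn7a and Scn9a, Camk2n2 and Ece2 were both higher. Dagla, Syt7 and Lrrc10b lie in a row and were all lower (−0.43, −0.44 and −1.0), as were Rfx3 and Glis3 (−0.63 and −0.72), Kcnk4 and Catsperz (−0.70 and −0.54), and Nr4a1 and Grasp (−0.54 and −0.50). Lyst was lower and its neighbour Gng4 higher (−0.59 and 0.41).

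The largest differences that did not pass the test were those of Snord53, a small nucleolar RNA gene (0.82, adjusted p = 0.702), C1ql2, a synaptic organiser of mossy fibres (−0.81, 0.0753), and Cdh9, a cadherin (−0.63, 0.0509). In the fit of all rows of the value table, 29 rows were called, 3 of them outside the gene table.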
